A study of Mus musculus with 5 samples.

Results

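The granzymes and the genes of the cytotoxic granule were examined in *Tet2/3* DKO and wild type (WT) CD4 single positive (CD4 SP) thymocytes. The 10 genes were taken by symbol from the deposited gene counts, *Gzma*, *Gzmb*, *Gzmk* and *Gzmm* for the granzymes, *Prf1*, *Nkg7*, *Ctsw* and *Srgn* for the rest of the granule, *Fasl* for the death ligand and *Serpinb9* for the inhibitor that protects the killer cell. They are 10 of 55487 gene identifiers counted, and all 10 were among the 13525 genes with enough counts to be tested. RNA was sequenced by SMART-seq from sorted CD4 SP cells of 3 WT and 2 *Tet2/3* DKO mice, with 1 library per mouse. All mice were on the C57BL/6J strain and around weaning age. *Tet2/3* DKO mice carried the genotype Tet2-/-Tet3flx/flxCD4cre, so that the *Tet2* mutation was in every cell of the animal and *Tet3* was deleted by a Cre under the control of *Cd4* sequences, which become active during T cell development in the thymus. WT mice are labelled only as wild type. The sort took live CD24-low cells that were CD4+ and TCRb+, and left out CD8+ cells and cells that bound the aGalCer-loaded CD1d tetramer, which marks invariant natural killer T (iNKT) cells.

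Killer lymphocytes store granzymes, which are serine proteases, together with the pore-forming protein perforin in secretory granules and release both onto a target cell, where perforin lets the granzymes enter and start cell death. Natural killer (NK) cells, iNKT cells and CD8+ effector cells are the usual carriers of this machinery, and conventional CD4 SP thymocytes, which are naive helper precursors, are not known for it. The granule proteins are packed on a proteoglycan core, the proteases are trimmed by cathepsins before they are active, and serpins in the cytosol bind granzymes that leak out.

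The libraries held 17607089 to 27267031 reads on genes. Levels are given as CPM, reads scaled to a common library size by TMM, and a floor of 3 counts was worth 0.109 to 0.168 CPM. A gene was called at an adjusted p-value of 0.01 in the quasi-likelihood test of edgeR, adjusted by Benjamini-Hochberg, and every adjusted p below comes from that test unless DESeq2 is named. *Tet3*, the floxed gene, had 1133, 1082 and 1440 reads in WT against 419 and 235 in *Tet2/3* DKO. *Tet2* had 1355, 1286 and 1585 reads in WT against 1919 and 1048 in *Tet2/3* DKO, above every WT library after scaling (log2 fold change 0.46, adjusted p = 0.135), and reads summed over the gene cannot test whether a part of it is deleted. The sex in the labels did not match the transcripts of 2 libraries. WT replicate 1, labelled female, had 0 counts of *Xist* and 1932 of the Y-linked *Ddx3y*. *Tet2/3* DKO replicate 1, labelled male, had 744 counts of *Xist* and 1 of *Ddx3y*. The paper describes the mice of both groups as male, which the transcripts of WT replicate 1 match and those of *Tet2/3* DKO replicate 1 do not. *Tet2/3* DKO replicate 1 also had 5.70% of its reads on no annotated feature, against 3.51% to 3.72% in the other libraries. Fold changes of the 10 genes are therefore also given without single libraries.

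Compared with WT, 5 of the 10 genes rose in *Tet2/3* DKO cells and 0 fell, against a background of 2.42% of all tested genes called higher and 1.5% called lower. The genes that rose were *Gzma*, *Nkg7*, *Prf1*, *Srgn* and *Serpinb9*. Without WT replicate 2 or without WT replicate 3 the count was 2, *Nkg7* and *Prf1*. In these fits the genes called higher over all genes also fell, from 327 to 70 and 78. At an unadjusted p under 0.05, edgeR counted 6 higher and 0 lower, beside 12.4% and 10.6% of all tested genes. DESeq2 called 5 higher and 0 lower at its adjusted p of 0.01, beside 3.92% and 2.99%. The fold change was positive for 9 of the 10, with a median log2 fold change of 1.09 beside 0.01 for all tested genes. Both *Tet2/3* DKO libraries lay above every WT library for 6 of the 10, beside 19.6% of all tested genes, and below for 0 of the 10, beside 19.5%. Added together, the 10 genes came to 836 to 911 CPM in the WT libraries and to 1568 and 2097 CPM in *Tet2/3* DKO replicates 1 and 2. Most of the WT sum was *Ctsw*, which was not called, and *Srgn*, with means of 462 and 307 CPM. Most of the *Tet2/3* DKO sum was *Srgn*, *Ctsw* and *Nkg7*, with means of 704, 526 and 408 CPM, and not the granzymes. In bulk RNA a larger number of expressing cells and more RNA per expressing cell cannot be told apart.

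**Figure D1:**
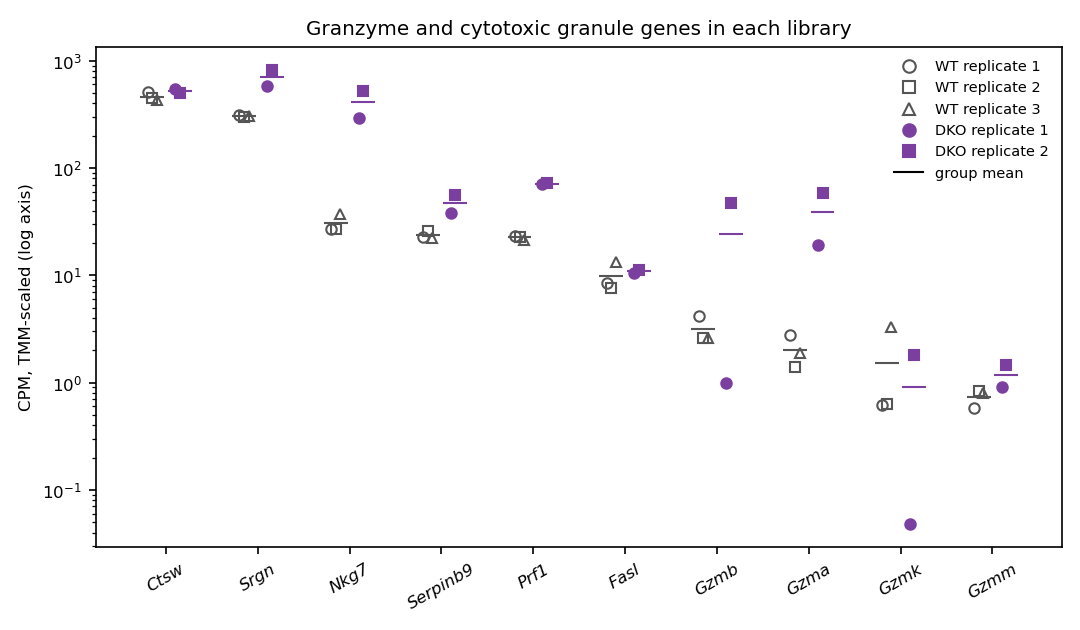
Level of each of the 10 genes in each library, in TMM-scaled CPM on a log axis, with WT libraries as open grey symbols, *Tet2/3* DKO libraries as filled purple symbols and horizontal lines at the group means. *Prf1*, *Nkg7*, *Srgn*, *Serpinb9* and *Gzma* stand above every WT library in both *Tet2/3* DKO libraries, while *Gzmb* spans 1.001 to 47.2 CPM between the *Tet2/3* DKO libraries.

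Of the 4 granzymes, *Gzma* was called higher and the other 3 were not called. *Gzma* (ENSMUSG00000023132, GRCm38 chromosome 13 from 113093825 to 113100981, minus strand), a granzyme that cuts after basic residues, had 72, 33 and 52 reads in WT against 402 and 1042 in *Tet2/3* DKO. Every *Tet2/3* DKO value lay far above every WT value, and replicate 2 was the higher of the pair. Its mean level was 2.02 ± 0.706 CPM in WT (SD, n = 3) against 38.7 ± 27.7 CPM in *Tet2/3* DKO (SD, n = 2), a log2 fold change of 4.23 (adjusted p = 0.00108, with SE, the standard error, 0.49), or 18.8-fold with a 95% interval from 8.67 to 40.6. Dropping *Tet2/3* DKO replicate 2 lowered it to 3.22 on the log2 scale, and dropping replicate 1 raised it to 4.83. The call was lost without WT replicate 2 (adjusted p = 0.0198), without WT replicate 3 (adjusted p = 0.0194) and with robust dispersion moderation in edgeR (adjusted p = 0.0336).

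*Gzmb* (ENSMUSG00000015437, chromosome 14 from 56258838 to 56262260, minus strand), the granzyme that cleaves caspases and other substrates after aspartate, had 109, 62 and 71 reads in WT against 21 and 843 in *Tet2/3* DKO. *Tet2/3* DKO replicate 1 was the lowest of the 5 libraries and replicate 2 the highest, so that the groups overlapped. The fitted log2 fold change was 2.89 with a 95% interval from 0.68 to 5.10 and an adjusted p of 0.111. Each *Tet2/3* DKO library alone gave a different direction against WT. Without replicate 1 the log2 fold change was 3.90 (adjusted p = 2.24e-10), and without replicate 2 it was -1.66 (adjusted p = 0.0315). In both of these fits edgeR takes the spread from the WT libraries alone and assumes that the lone *Tet2/3* DKO library varies as they do. The level of *Gzmb* in replicate 2 was 47.1 times that in replicate 1, and 11 of the 13525 tested genes, 0.0813%, differed more between these libraries.

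The stretch just before the start of each gene is shown for the pair of granzymes that reached the highest levels in *Tet2/3* DKO replicate 2, and for *Prf1*, which rose to close to the same level in both *Tet2/3* DKO libraries. The sequences are the 250 bases before the RefSeq start in GRCm38.p6, read 5′ to 3′ on the strand of the gene. Capitals mark TGTGGTT, a RUNX motif, or its reverse complement.
*Gzma*, chr13:113100982-113101231, minus strand: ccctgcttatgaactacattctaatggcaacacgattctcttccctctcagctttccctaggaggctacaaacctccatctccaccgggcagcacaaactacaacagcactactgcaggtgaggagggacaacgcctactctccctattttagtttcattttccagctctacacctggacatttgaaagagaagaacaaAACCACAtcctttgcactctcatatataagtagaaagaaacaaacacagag
*Gzmb*, chr14:56262335-56262584, minus strand: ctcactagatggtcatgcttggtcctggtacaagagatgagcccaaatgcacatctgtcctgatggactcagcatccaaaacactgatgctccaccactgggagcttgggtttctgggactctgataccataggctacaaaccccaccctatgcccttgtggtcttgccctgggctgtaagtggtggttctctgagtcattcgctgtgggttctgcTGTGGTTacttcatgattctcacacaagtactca
*Prf1*, chr10:61297586-61297835, plus strand: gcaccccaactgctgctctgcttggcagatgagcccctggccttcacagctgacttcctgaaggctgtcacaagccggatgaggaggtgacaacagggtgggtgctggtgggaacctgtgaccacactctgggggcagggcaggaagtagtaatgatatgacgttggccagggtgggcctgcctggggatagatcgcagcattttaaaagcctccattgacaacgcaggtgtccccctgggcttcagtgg
In *Gzma* the match starts 51 bases before the RefSeq start and in *Gzmb* 34 bases before it. RefSeq starts can differ from the gene spans given here, which are from GENCODE. The window of *Gzmb* begins at 56262335 and its span ends at 56262260. The windows of *Gzmk* and *Serpinb9* lie inside their spans. RefSeq windows were found for 9 of the 10 genes, 11 windows in all, and the sequences used here held none for *Ctsw*. On either strand the RUNX letters were in 3 of the 11 windows (*Gzma*, *Gzmb* and the second of the windows of *Srgn*), beside 4.40% of 32851 windows of the same length. The T-box letters GGTGTGA were in 3 windows (*Nkg7*, *Gzmk* and the second of the windows of *Gzmm*), beside 3.33% of all windows, and the other 5 windows, those of *Prf1*, *Fasl* and *Serpinb9* among them, held neither. No window held both. The windows of the 10 genes held 1 to 7 CpG sites with a median of 3, and the median over all windows was 6 (25th to 75th percentile 2 to 16). A match describes the letters of the window and was not tested as a binding site.

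*Gzmk* (ENSMUSG00000042385, chromosome 13 from 113171608 to 113225908, minus strand), a granzyme of memory and innate-like T cells, lies next to *Gzma* with 70.6 kb between them and no protein-coding gene in the gap. It had 16, 15 and 91 reads in WT against 1 and 32 in *Tet2/3* DKO. WT replicate 3 was the highest library and *Tet2/3* DKO replicate 1, under the floor, the lowest, and the groups overlapped. Its log2 fold change was -0.88 with a 95% interval from -3.18 to 1.41 (adjusted p = 0.676). Its sign turned when 1 library was dropped, to 0.44 without WT replicate 3 and to 0.18 without *Tet2/3* DKO replicate 1. The longest run of bases that the *Gzma* and *Gzmk* transcripts share is 13.

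*Gzmm* (ENSMUSG00000054206, chromosome 10 from 79689020 to 79695261, plus strand), the granzyme best known from NK cells, was low in all libraries, with 15, 20 and 22 reads in WT against 19 and 26 in *Tet2/3* DKO. After scaling, the *Tet2/3* DKO libraries, at 0.906 and 1.45 CPM, lay above the WT libraries, at 0.580 to 0.843 CPM. The log2 fold change of 0.64 did not pass the test (95% interval from -0.31 to 1.60, adjusted p = 0.422), and at this depth the interval holds both no change and a 3.04-fold rise.

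The other granzymes of the mouse cluster on chromosome 14 showed little expression. *Gzmc*, which lies 24.2 kb from *Gzmb*, had 64, 75 and 64 reads in WT against 51 and 72 in *Tet2/3* DKO (log2 fold change 0.27, adjusted p = 0.692). *Gzmd*, *Gzme*, *Gzmg* and *Gzmn* had 0 counts in every library, and *Gzmf* had 1 count in *Tet2/3* DKO replicate 1. After scaling, *Gzmc* too was highest in *Tet2/3* DKO replicate 2, at 4.03 CPM against 2.43 CPM in replicate 1 and 2.33 to 3.16 CPM in WT. *Gzmb* and *Gzmc* are 78.8% identical over 831 aligned bases with a longest shared run of 49, and how reads on such stretches were split is uncertain.

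Among the genes for the rest of the granule, *Prf1*, *Nkg7* and *Srgn* rose in both *Tet2/3* DKO libraries. *Prf1* (ENSMUSG00000037202, chromosome 10 from 61297833 to 61304680, plus strand), which encodes perforin, had 604, 545 and 581 reads in WT against 1486 and 1286 in *Tet2/3* DKO. The groups were far apart and the libraries within each group lay close together. Its mean level was 22.5 ± 1.17 CPM in WT (SD, n = 3) against 71.4 ± 0.783 CPM in *Tet2/3* DKO (SD, n = 2), a log2 fold change of 1.67 (SE 0.11, adjusted p = 3.1e-05), or 3.17-fold with a 95% interval from 2.69 to 3.74. The call was kept under all 15 alternatives run, and dropping *Tet2/3* DKO replicate 2 or 1 gave log2 fold changes of 1.64 and 1.68.

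*Nkg7* (ENSMUSG00000004612, chromosome 7 from 43437073 to 43438249, plus strand), a granule membrane protein needed for efficient granule release, had 697, 634 and 1029 reads in WT against 6180 and 9327 in *Tet2/3* DKO. Both *Tet2/3* DKO libraries were well above WT replicate 3, the highest WT library. Its mean level was 30.4 ± 6.16 CPM in WT (SD, n = 3) against 408 ± 161 CPM in *Tet2/3* DKO (SD, n = 2). This is a log2 fold change of 3.74 (SE 0.24, adjusted p = 3.1e-05), or 13.4-fold with a 95% interval from 9.25 to 19.4. Leaving out *Tet2/3* DKO replicate 2 gave 3.26, leaving out replicate 1 gave 4.10, and the call was kept under all 15 alternatives.

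*Srgn* (ENSMUSG00000020077, chromosome 10 from 62493833 to 62527451, minus strand) encodes serglycin, the proteoglycan on which granule proteins are packed, and many blood cells express it. It had 8140, 7131 and 8354 reads in WT against 12275 and 14719 in *Tet2/3* DKO, which is 300.5 to 315 CPM against 585 and 824 CPM. The WT libraries were nearly equal and both *Tet2/3* DKO libraries lay above them. This is a log2 fold change of 1.20 (SE 0.13, adjusted p = 0.000731), or 2.30-fold with a 95% interval from 1.88 to 2.81. The call was lost without WT replicate 2 (adjusted p = 0.0154) and without WT replicate 3 (adjusted p = 0.0137), with fold changes of 1.18 and 1.19 on the log2 scale.

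*Ctsw* (ENSMUSG00000024910, chromosome 19 from 5465043 to 5468507, minus strand), a cathepsin of CD8+ T cells and NK cells, was already high in WT CD4 SP cells. It had 13073, 10691 and 11764 reads in WT against 11489 and 9006 in *Tet2/3* DKO, or 429 to 506 CPM against 548 and 504 CPM, so that the groups overlapped. The log2 fold change was 0.19 with a 95% interval from -0.03 to 0.40 (adjusted p = 0.282). On the linear scale the interval ends at 1.32-fold.

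*Fasl* (ENSMUSG00000000817, chromosome 1 from 161780689 to 161788495, minus strand), the ligand of the death receptor Fas and the granule-independent arm of killing, had 221, 181 and 361 reads in WT against 221 and 202 in *Tet2/3* DKO. WT replicate 3 was the highest of all libraries and the groups overlapped. Its log2 fold change was 0.15 with a 95% interval from -0.41 to 0.71 (adjusted p = 0.792).

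*Serpinb9* (ENSMUSG00000045827, chromosome 13 from 33003250 to 33017957, plus strand) encodes the serpin that binds granzyme B inside the cell. It had 594, 609 and 615 reads in WT against 793 and 1004 in *Tet2/3* DKO, and the *Tet2/3* DKO libraries were above the WT libraries with replicate 2 the higher. The mean was 23.7 CPM in WT and 47.0 CPM in *Tet2/3* DKO, a log2 fold change of 0.98 (SE 0.17, adjusted p = 0.00722), or 1.98-fold with a 95% interval from 1.52 to 2.58. The rise in *Serpinb9* was present in *Tet2/3* DKO replicate 1, where *Gzmb* was at its lowest, at 0.66 on the log2 scale without replicate 2. The call was close to the threshold. It was lost when any WT library was dropped, with adjusted p-values of 0.0417 to 0.0555.

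**Figure D2:**
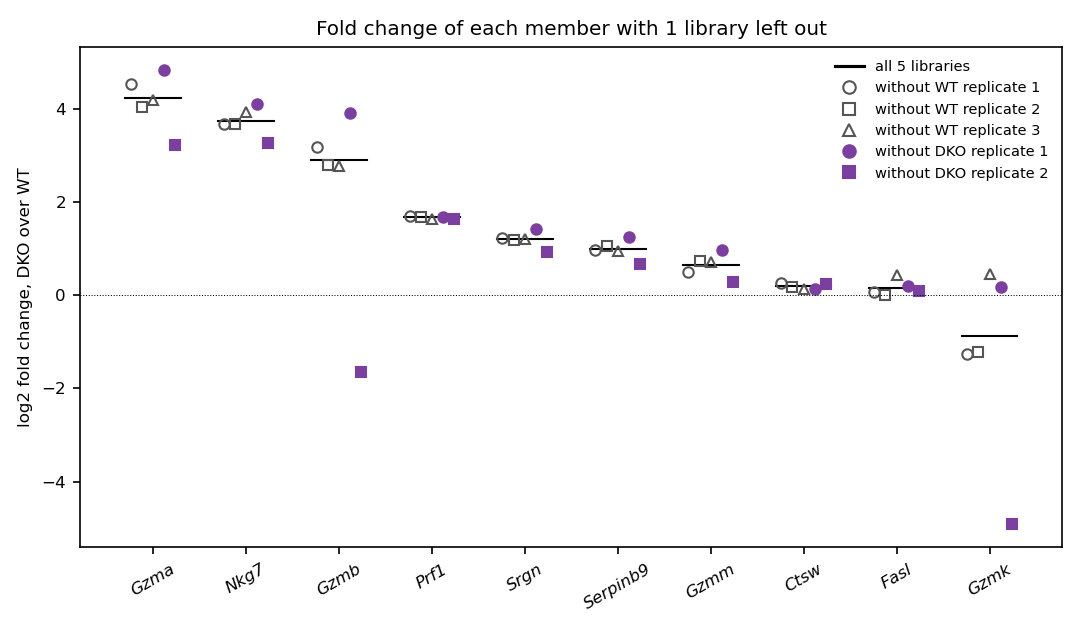
Log2 fold change of each of the 10 genes in *Tet2/3* DKO over WT cells from all 5 libraries (black lines) and with 1 library left out (symbols). *Prf1* stays at 1.64 to 1.68 whichever *Tet2/3* DKO library is left out, *Gzmb* moves from 3.90 to -1.66, and *Gzmk* falls to -4.92 without *Tet2/3* DKO replicate 2.

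Per kilobase of exon, the order of the 10 genes changed between the genotypes. In WT cells *Ctsw* was highest at 245 CPM per kb, followed by *Srgn* at 140 and *Nkg7* at 33.2, and these were apart from each other and from the rest in every library. *Prf1* at 8.71, *Serpinb9* at 6.78 and *Fasl* at 5.05 CPM per kb came next, with *Serpinb9* and *Fasl* overlapping. *Gzmb* at 2.19, *Gzma* at 2.01, *Gzmk* at 1.10 and *Gzmm* at 0.504 CPM per kb were lowest, and neighbours among these 4 overlapped between libraries.

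In *Tet2/3* DKO cells *Nkg7* had the highest mean at 447 CPM per kb, ahead of *Srgn* at 321 and *Ctsw* at 279. *Nkg7* was the highest of these 3 in each library, and *Srgn* and *Ctsw* changed places between libraries, at 266 and 290 CPM per kb in replicate 1 and 375 and 267 in replicate 2. *Gzma* moved up from the 8th to the 4th place with 38.5 CPM per kb, ahead of *Prf1* at 27.6, *Gzmb* at 16.8 and *Serpinb9* at 13.4, although these 4 overlapped as neighbours. *Fasl*, at 5.64 CPM per kb close to its WT level, took the 8th place by its mean, ahead of *Gzmm* at 0.802 and *Gzmk* at 0.662 CPM per kb. In replicate 1 alone *Gzmb*, at 0.697 CPM per kb, stood below *Fasl* at 5.44, and in replicate 2 above it. The order was the same in both genotypes when the longest transcript was used as the length.

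The *Tet2/3* DKO libraries differed in how strongly they carried these genes. Replicate 2 was above replicate 1 for 9 of the 10, with a median log2 ratio of 0.60 (log2 CPM with a prior count of 2, which draws in the ratios of low genes) beside -0.00 for all tested genes, for which the median size of the ratio was 0.247. Among the 327 genes called higher, replicate 2 was above replicate 1 in 215, with a median log2 ratio of 0.20. *Gzmk* had 1 count in replicate 1, under the floor, and 32 in replicate 2. Its ratio enters the median with the prior count and is not given on the CPM scale. On the CPM scale the ratio was 47.1-fold for *Gzmb*, 3.04-fold for *Gzma*, 1.77-fold for *Nkg7* and 1.02-fold for *Prf1*. *Prf1* was thus at the same level in libraries that differed widely in *Gzmb* and *Gzmk*.

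**Figure D3:**
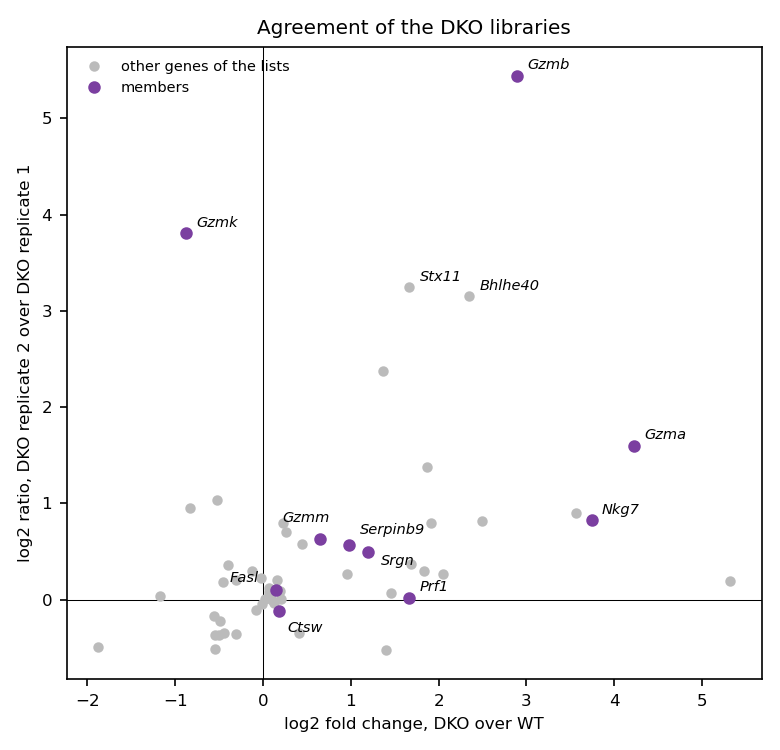
Log2 ratio of *Tet2/3* DKO replicate 2 over replicate 1 against the log2 fold change of *Tet2/3* DKO over WT, for the 10 genes (purple) and the other tested genes of the lists (grey). *Gzmb* is highest at 5.44, followed by *Gzmk* at 3.81 (from 1 count in replicate 1), *Stx11* at 3.25 and *Bhlhe40* at 3.15, and *Prf1* lies at 0.02.

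Genes that work around the granule were taken from 6 further lists, 51 genes of which 44 were tested. Of these, 7 rose and 3 fell, beside 2.42% and 1.5% of all tested genes, and the median log2 fold change was 0.11. With 1 library left out the 10 calls became 5 (without WT replicate 3) to 22 (without *Tet2/3* DKO replicate 1). The lists for maturation and inhibition and for transcription factors of cytotoxic cells held 6 of the 7 increases.

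In the list of granzyme maturation and inhibition, 3 of 6 tested genes rose and 0 fell, with a median log2 fold change of 1.80. At an unadjusted p under 0.05 edgeR counted 5 higher and 0 lower, and DESeq2 called 4 higher and 0 lower. *Cst7*, or cystatin F, an inhibitor of the cathepsins that activate granzymes, had 405, 336 and 396 reads in WT against 2573 and 4087 in *Tet2/3* DKO, a log2 fold change of 3.57 (adjusted p = 3.59e-05). *Serpinb6b*, with 387, 302 and 408 counts against 840 and 929, rose by 1.69 on the log2 scale (adjusted p = 0.000234). *Serpinb1a*, an inhibitor of neutrophil-type serine proteases, had 53, 56 and 35 counts against 162 and 245 and rose by 2.49 (adjusted p = 0.00221). The call of *Serpinb1a* was lost without any single WT library (adjusted p = 0.0162 to 0.0233). These 3 are inhibitors, as are 4 of the 6 tested genes of the list.

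The cathepsin C gene *Ctsc*, whose product trims the granzyme precursors, had 8514, 7310 and 8474 reads in WT against 7624 and 6510 in *Tet2/3* DKO, a log2 fold change of 0.21 that did not pass (adjusted p = 0.157). *Ctsh*, a second convertase, had 29, 33 and 17 counts against 60 and 90 (1.91 on the log2 scale, adjusted p = 0.0191), and was the fourth gene that DESeq2 called (adjusted p = 0.0037). *Serpinb9b*, which lies 9.46 kb from *Serpinb9*, had 0 counts in the WT libraries and 1 and 36 in *Tet2/3* DKO and was not tested. It shares stretches of up to 62 bases with *Serpinb9*, so the split of reads between them is uncertain, as it is for *Serpinb6b* and *Serpinb6a*, which share up to 57.

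Of 18 genes of granule transport and release, all tested, 1 was higher and 1 was lower, with a median log2 fold change of 0.04. At an unadjusted p under 0.05 edgeR counted 3 higher and 4 lower, and both *Tet2/3* DKO libraries lay above every WT library for 4 genes and below for 5, shares of the 18 near the 19.6% and 19.5% of all tested genes. *Lyst*, the regulator of lysosome-related organelles that is mutated in Chediak-Higashi syndrome, had 272, 252 and 235 reads in WT against 641 and 379 in *Tet2/3* DKO, a log2 fold change of 1.40 (adjusted p = 0.00228), and lost its call without any single WT library (adjusted p = 0.0175 to 0.0236). *Igf2r*, the larger mannose 6-phosphate receptor, which sorts granzymes to lysosomes, had 5094, 4489 and 4667 reads in WT against 1234 and 748 in *Tet2/3* DKO, a log2 fold change of -1.88 (adjusted p = 0.000122). The smaller receptor *M6pr*, with a log2 fold change of 0.16 (adjusted p = 0.404), did not pass. The docking and fusion genes *Rab27a*, *Unc13d* and *Stxbp2* had log2 fold changes of -0.30, -0.45 and -0.02 with adjusted p-values of 0.200, 0.0898 and 0.928.

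*Stx11*, a syntaxin of granule fusion, was named after its values were seen. It had 261, 233 and 300 reads in WT against 132 and 1082 in *Tet2/3* DKO. Like *Gzmb*, it was lowest in *Tet2/3* DKO replicate 1 and highest in replicate 2 (log2 fold change 1.67, adjusted p = 0.162). With replicate 1 alone its log2 fold change was -0.72 (adjusted p = 0.0365) and with replicate 2 alone 2.55 (adjusted p = 6.9e-10), both with the spread taken from WT alone. *Bhlhe40*, a transcription factor of effector T cells also named after its values were seen, was highest in replicate 2 and within the WT range in replicate 1, with 202, 192 and 233 reads in WT against 178 and 1358 in *Tet2/3* DKO (adjusted p = 0.0635). Its log2 fold change was 0.05 with replicate 1 alone and 3.22 with replicate 2 alone.

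Of 6 other death ligands, death receptors and type 1 cytokines, 0 were called in either direction by edgeR, with 1 higher and 2 lower at an unadjusted p under 0.05, and DESeq2 called 1 higher and 1 lower. *Tnfsf10*, which encodes TRAIL, had a log2 fold change of 0.95 (adjusted p = 0.0148) and *Fas*, the receptor of *Fasl*, one of -0.49 (adjusted p = 0.0147). *Ifng* had 18, 6 and 27 reads in WT against 11 and 55 in *Tet2/3* DKO, and the groups overlapped.

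Of 9 tested transcription factors of cytotoxic cells, 3 were higher and 0 lower, with 7 higher and 0 lower at an unadjusted p under 0.05 in edgeR and 4 higher and 0 lower in DESeq2. *Eomes*, a T-box factor of cytotoxic and memory cells, had 46, 49 and 72 reads in WT against 1704 and 1658 in *Tet2/3* DKO, a log2 fold change of 5.32 (adjusted p = 1.02e-06). *Stat4*, which transmits interleukin 12 signals, had a log2 fold change of 1.84 (adjusted p = 3.1e-05) and *Zfp683*, which encodes Hobit, one of 2.05 (adjusted p = 0.00107), which was lost without WT replicate 1 or 3 (adjusted p = 0.0125 and 0.0140). *Tbx21*, which encodes T-bet, had 93, 61 and 113 counts against 150 and 334 and did not pass the threshold in edgeR (1.87 on the log2 scale, adjusted p = 0.0190), whereas DESeq2 called it (adjusted p = 9.5e-05). Its log2 fold change was 1.03 with *Tet2/3* DKO replicate 1 alone and 2.43 with replicate 2 alone. *Runx3*, the CD8 lineage factor, had a log2 fold change of 0.41 (adjusted p = 0.142).

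Of 4 transcription factors that oppose the cytotoxic program, 2 were lower and 0 were higher, in edgeR at an unadjusted p under 0.05 4 were lower and 0 higher, and DESeq2 called 3 lower and 0 higher. *Zbtb7b*, which encodes the CD4 lineage factor Th-POK, fell by 1.17 on the log2 scale (adjusted p = 0.00224) and *Tcf7*, which encodes TCF1, fell by 0.56 (adjusted p = 0.0074). The call of *Tcf7* was lost without any single WT library (adjusted p = 0.0229 to 0.0478), and that of *Zbtb7b* without WT replicate 2 or 3 (adjusted p = 0.0138 and 0.0198).

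**Figure D4:**
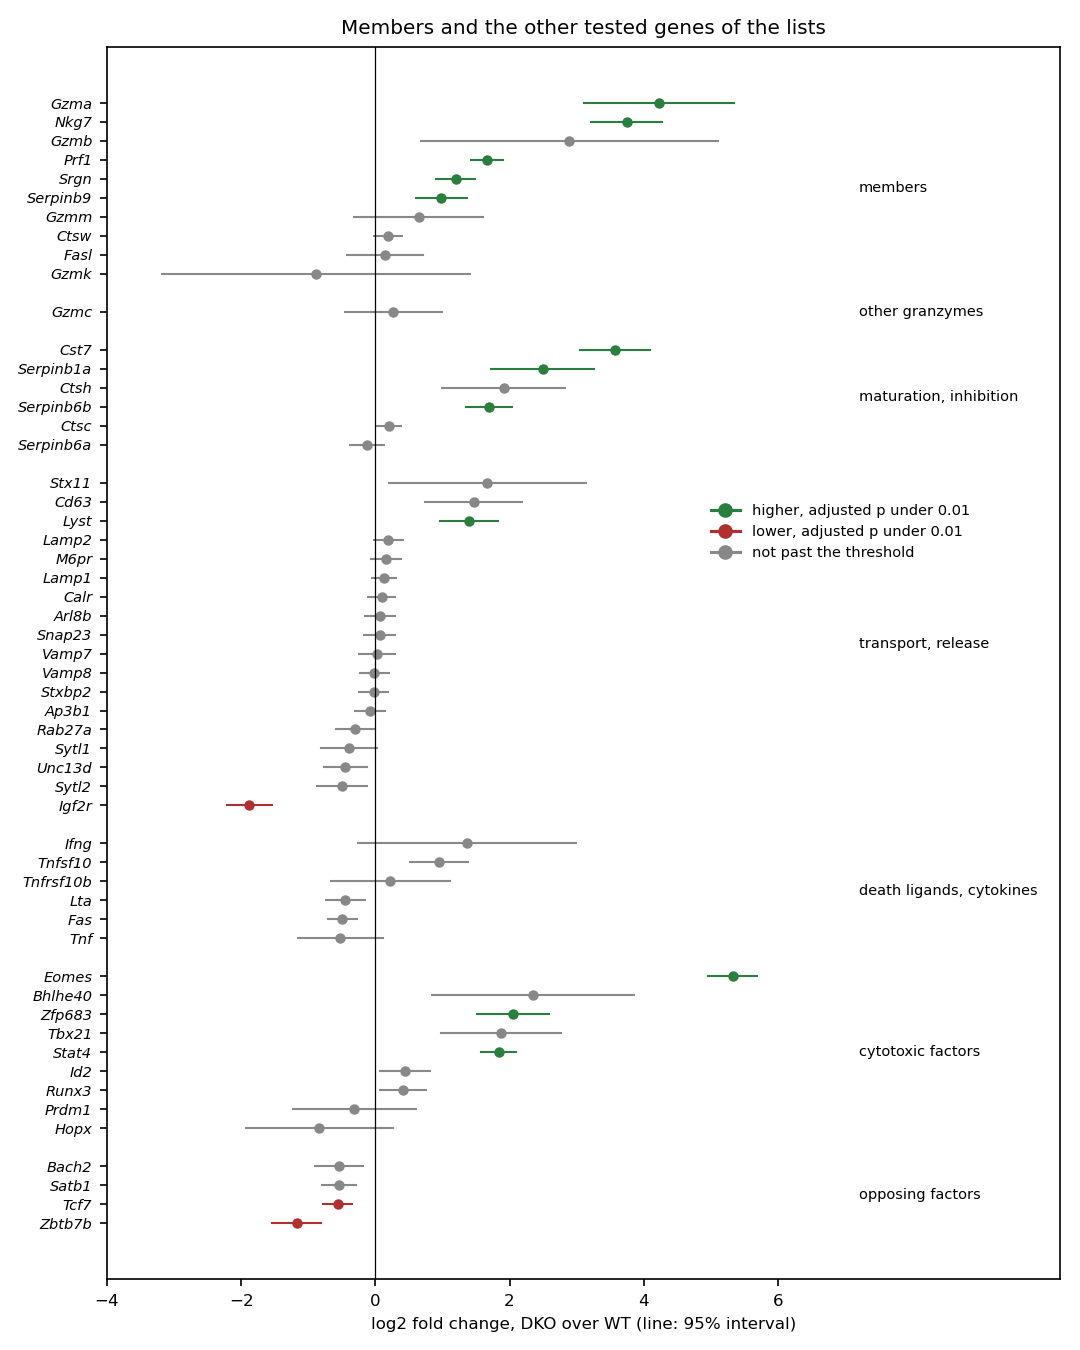
Log2 fold change of *Tet2/3* DKO over WT with its 95% interval for the 10 genes and the 44 other tested genes of the lists, in green where higher, red where lower and grey where not past the adjusted p-value of 0.01. The granule transport and release genes have a median of 0.04 and run from *Igf2r* at -1.88 to *Stx11* at 1.67, while *Gzma*, *Nkg7*, *Cst7* and *Eomes* exceed 3.

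For each of the 5 genes that rose, the gene with the most similar pattern was the one with the smallest Euclidean distance in centred log2 CPM over the 5 libraries, out of 10500 candidates. *Nkg7* was nearest to *Cxcr3*, a chemokine receptor of type 1 effector cells, at a distance of 0.370, with 482, 455 and 856 reads of *Cxcr3* in WT against 5187 and 5787 in *Tet2/3* DKO. *Gzma* was nearest to *Trgv2*, a T cell receptor gamma variable segment, at 0.484, with 44, 25 and 36 counts against 310 and 541. *Prf1* was nearest to *H2-DMb2* (0.125), *Srgn* to *Mettl7a1* (0.156) and *Serpinb9* to *Daglb* (0.0929). The distances rest on 5 libraries in 2 groups, and any gene with a like difference between the groups is near.

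Markers of other cell types that use this machinery were read beside these genes, although the gates described select against them: TCRb+ against NK and gamma-delta T cells, and tetramer-negative against iNKT cells. The markers of CD4 SP T cells summed to 15221 to 15986 CPM in WT and 15407 and 13535 CPM in *Tet2/3* DKO. Most of this sum is CD3 and T cell receptor genes that T cells share, so it does not by itself identify CD4 SP cells. *Cd4* had a mean of 653 CPM in WT and 411 CPM in *Tet2/3* DKO. In this list *Cd4*, *Cd5* and *Ccr7* were lower in *Tet2/3* DKO. Of these 3, *Cd5* kept its call without each WT library in turn, and *Cd4* and *Ccr7* lost theirs each time. NK cell markers rose in 4 of 9 tested genes and summed to 15.0 to 17.5 CPM in WT and to 45.0 and 117 CPM in *Tet2/3* DKO replicates 1 and 2. *Ncr1*, a gene of the NK list, had 1, 0 and 0 reads in WT against 31 and 40 in *Tet2/3* DKO. *Tet2/3* DKO replicate 2, with more *Gzma* and *Gzmb*, also had the higher NK marker sum.

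Markers of iNKT cells rose in 4 of 5 genes, all but *Il2rb* (adjusted p = 0.148). They summed to 462 to 490 CPM in WT and to 811 and 1065 CPM in *Tet2/3* DKO. Most of the WT sum was *Slamf6* and *Il2rb*, with means of 257 and 209 CPM. Reads of the invariant TRAV11 and TRAJ18 rearrangement that defines these cells were 0.0357% to 0.0636% of T cell receptor alpha reads in WT (4 to 7 reads), 0.0820% in *Tet2/3* DKO replicate 1 (8 reads, 95% Wilson interval from 0.0415% to 0.162%) and 0.0156% in replicate 2 (1 read, 0.00276% to 0.0884%), so no difference was detectable at this depth. Markers of gamma-delta T cells rose in 5 of 7 matched genes, from 31.5 to 33.2 CPM to 249 and 426 CPM, while the defining constant segment *Trdc* did not pass (302, 279 and 457 counts against 384 and 273). *Sox13*, a factor of gamma-delta cells in the same list, had 28, 25 and 26 reads in WT against 5 and 4 in *Tet2/3* DKO and did not pass (log2 fold change -2.12, adjusted p = 0.0366). Effector or memory markers rose in 3 of 8 tested genes, from 272 to 301 CPM to 589 and 865 CPM. *Il2rb*, which was not called, carried most of this sum in WT, with a mean of 209 CPM. Without WT replicate 2 or without WT replicate 3 the genes called higher went from 4 to 0 in the NK list, from 5 to 3 in the gamma-delta list and from 3 to 1 in the effector list, and 3 of the 4 in the iNKT list were left. *Klrb1c* stands in both the NK and the iNKT list, *Cd8a* and *Cd8b1* in both the CD8 and the double-positive list, and *Il2rb* in both the iNKT and the effector list. The part of all these cells in the rise of the granule genes was not tested.

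The CD8 T cell list holds *Cd8a* and *Cd8b1*, whose fold changes differed in sign. *Cd8b1* fell by 1.29 on the log2 scale (adjusted p = 0.000168) and carries most of the summed level of 68.8 to 77.1 CPM in WT against 34.3 and 35.8 CPM in *Tet2/3* DKO. *Cd8a* stood at 2.71 to 5.39 CPM in WT against 5.77 and 8.67 CPM, above every WT library, and did not pass (log2 fold change 0.94, adjusted p = 0.128). Regulatory T cell markers had 1 of 4 genes lower, *Foxp3*, which was lost without WT replicate 2 or 3, and double-positive thymocyte markers 1 of 4 tested genes lower, again *Cd8b1*, with *Rag1* at 0 counts in every library. By edgeR 0 genes were called among 2 B cell, 6 myeloid or dendritic and 2 mast cell genes. At an unadjusted p under 0.05 in edgeR, 1, 3 and 1 were higher and 0, 0 and 1 lower. The shares of all tested genes were 12.4% higher and 10.6% lower. The median log2 fold change of the myeloid or dendritic list was 1.29. DESeq2 called 0, 0 and 1 higher and 0 lower. Mast cells carry serglycin and granule proteases of their own, and *Mcpt4* and *Tpsb2* were at 0 counts in every library. The mast cell protease gene *Cpa3*, however, had 19, 9 and 13 reads in WT against 46 and 39 in *Tet2/3* DKO, a log2 fold change of 2.03 that edgeR did not call (adjusted p = 0.0123) and DESeq2 did (adjusted p = 0.0092). *Kit*, the other tested gene of the list, differed in the opposite direction, with 33, 34 and 39 reads in WT against 7 and 10 in *Tet2/3* DKO (log2 fold change -1.64, adjusted p = 0.0610). The summed mast cell level was 1.81 to 2.01 CPM in WT against 2.53 and 2.80 CPM. The myeloid sum was 73.6 to 96.3 CPM in WT and 98.5 and 159.8 CPM in *Tet2/3* DKO, the B cell sum 5.61 to 6.96 against 9.11 and 8.62 CPM, and erythroid genes had at most 3 counts in any library. What these cells contribute to *Srgn* was not tested.

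The clonal make-up of the libraries also differed. The 10 largest T cell receptor beta clonotypes held 0.430% to 0.511% of the beta reads in WT, 8.33% in *Tet2/3* DKO replicate 1 (95% Wilson interval from 7.85% to 8.85%) and 33.2% in replicate 2 (32.3% to 34.1%). Replicate 2, the more clonal library, was the one in which *Gzma*, *Gzmb* and *Nkg7* were highest, whereas *Prf1* was equal in both. *Tet2/3* DKO replicate 1, more clonal than any WT library, had the lowest *Gzmb* and *Gzmk* of the 5. Intervals on reads cover counting error only. The part of clonal expansion in these levels was not tested.

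With WT replicate 1 and *Tet2/3* DKO replicate 1, the libraries whose sex did not match their labels, left out together, 6 of the 10 genes were higher and 0 lower, and all 5 genes called before were among them. In the same fit the calls over all genes rose to 977 higher, 6.94%, and 370 lower, 2.63%. *Gzmb* was the sixth, at 4.17 on the log2 scale. This leaves 1 *Tet2/3* DKO library and takes the spread from 2 WT libraries.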

How the data were processed

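RNA of sorted CD4 SP thymocytes from 3 WT and 2 *Tet2/3* DKO mice was sequenced with SMART-seq, 1 library per mouse, and groups were taken from the sample titles. Per the submitters' processing notes and the study's methods, reads were trimmed with fastp 0.21.0 and aligned with STAR 2.7.5a to mm10 with the Ensembl gene models. The authors deposited raw counts per gene, without normalization or pooling. Reads on no gene, on several genes or at several places (20.8% to 23.7%) stayed out of the library sizes. The authors also deposited clonotype read counts and the fraction each clonotype makes up; the fraction was used only to check the counts, and the tool is not given in the sources used here. Libraries were not stranded, so overlapping and antisense genes cannot be told apart.

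The 10 genes and all lists were chosen with earlier results of these data known. Counts irrespective of strand went into edgeR 4.0.16 (its quasi-likelihood fit with the newer dispersion moderation, TMM scaling, filterByExpr by group, Benjamini-Hochberg adjustment over 13525 genes, threshold 0.01) in R 4.3.3. Standard errors are log2 fold changes divided by the square root of F. DESeq2 1.42.0, the tool of the study, was an alternative, as were other scalings, filters, strands, moderations, a replicate block and each library left out. The edgeR script was tested on simulated data, and the share of changed genes it had to recover was dropped as a criterion after a first run had missed it, leaving the correlation of fold changes, the number of false calls and a better recovery of larger changes. GENCODE M21 gave symbols, coordinates and exon lengths for 55227 of 55487 identifiers. Promoter windows came from RefSeq (GRCm38.p6) and were searched in Python 3.11.15. Named are the 10 genes, genes of the 6 further lists past the threshold, checks of the labels and others where a result turned on them. The nearest gene in pattern to each of the 5 that rose is also named. Cell type markers past the threshold are given mostly by counts per list. The mice are separate animals, and no molecular identifiers were used.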

Additional observations from a re-analysis of the deposited data

How the results depend on the processing

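Prf1 and Nkg7 kept their calls under all 15 alternatives in edgeR or DESeq2, Srgn under 13, Gzma under 12 and Serpinb9 under 11. Over the fold changes of the 10 genes and these alternatives with the threshold of 0.05 added, 145 values kept direction and side of the threshold, 9 lost and 2 gained the call and 4 changed sign, namely Gzmb at -1.66 without *Tet2/3* DKO replicate 2 (3.90 without replicate 1) and Gzmk at 0.40 with the replicate block, 0.44 without WT replicate 3 and 0.18 without *Tet2/3* DKO replicate 1 (-4.92 without replicate 2). The count of the 10 genes past the threshold was 5 and ran from 2 to 6 with 1 library left out, lowest without WT replicate 2 or 3. In the other lists it was 10, 16 at a threshold of 0.05 and 5 to 22 with 1 library left out, and over all genes 530, 1027 with DESeq2, 1174 at a threshold of 0.05 and 110 to 1312 with 1 library left out. Leaving out both libraries numbered 1, chosen after seeing the data, gave 1347 genes, 22 in the other lists and 6 of the 10. The replicate block gave 359 genes over all, 8 in the other lists and 4 of the 10, with Serpinb9 lost (0.93 on the log2 scale, adjusted p = 0.0160), as were Lyst (adjusted p = 0.0131) and Tcf7 (adjusted p = 0.0187). Deviations of same-numbered libraries from their group means had correlations of 0.0151 and 0.00446. The 2 *Tet2/3* DKO libraries deviate as mirror images of each other, so these values cannot exclude a pairing. In the main fit the numbers were used only as names of the samples. Dropping a WT library lowers the residual degrees of freedom, and dropping a *Tet2/3* DKO library leaves the spread to WT alone. *Gzmk* and *Gzmm* had 1 to 91 counts per library, and for *Gzmk* the libraries of a group differed widely.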
